A study of Arabidopsis thaliana with 27 samples.

Results

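UGT73B1, UGT73B2, UGT73B3 and UGT73C1 to UGT73C7 are 10 of the 32833 genes counted in these libraries, and they make up the UGT73C group and the first cluster of the UGT73B group of Arabidopsis glucosyltransferases. The members were taken by gene identifier, but the family itself was chosen by its log2 fold changes of NAE against DMSO in these same libraries. Those differences are therefore described here without a test. Of the 10 members, 8 passed the filter on low counts in cotyledons and in seedlings and 7 passed it in roots. UGT73C2 and UGT73C6 failed it in every organ and UGT73C1 failed it in roots.

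UGT73 enzymes are cytosolic UDP-glycosyltransferases that move glucose from UDP-glucose onto small hydrophobic molecules, which usually lowers their activity and makes them ready for storage in the vacuole. UGT73C5, also called DOGT1, glucosylates the fungal toxin deoxynivalenol and brassinosteroid hormones. UGT73C6 acts on flavonols and on brassinosteroids, UGT73C1 on cytokinins, UGT73B1 on abscisic acid, and UGT73B2 on flavonols. UGT73B3 takes part in the response to bacterial infection, and UGT73C7 glucosylates phenolic acids. Several of these genes are known as quickly induced by xenobiotics and by oxidised lipids, and TGA-type transcription factors are among their known regulators.

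N-acylethanolamines (NAEs) are lipids of a fatty acid joined to ethanolamine, and NAE 18:3 carries an additional double bond compared with NAE 18:2. Seedlings of the ecotype given as Col-O, 3 days old and grown in liquid culture, were divided among dishes that received either NAE 18:2 at 40 µM, NAE 18:3 at 70 µM, or DMSO alone at 0.2%. The series text gives 80 µM for NAE 18:3, the labels give 1 h of treatment, and the methods give a span of 1 to 3 h. Cotyledons and roots were dissected, and whole seedlings were collected beside them. Poly(A) RNA was read in 3 libraries for each of the 9 groups, with total counts from 17781269 to 38635934 (median 26436942). The methods call the 3 samples of each group biological replicates. The labels do not say that replicates came from separate cultures, so p-values measure the spread between these libraries. Values are in CPM, read counts scaled by library size with TMM factors over the 27 libraries.

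The organs were checked with marker genes. Between the DMSO organs, all 5 root markers were called higher in roots and all 5 cotyledon markers lower. The summed cotyledon markers were at 43639 to 57262 CPM in cotyledons and at 16.8 to 45 CPM in 8 root libraries. NAE 18:3 roots replicate 3 stood apart with 630 CPM, and the stomatal marker FAMA was at 0 in 7 of 9 root libraries. The summed root markers were at 96.3 to 147.6 CPM in DMSO seedlings, at 84.4 CPM in NAE 18:2 seedlings replicate 2 and at 58.7 CPM in NAE 18:3 seedlings replicate 1. They were at only 6.53 to 8.28 CPM in the other 4 NAE-treated seedling libraries, against 1.09 to 3.89 CPM in dissected cotyledons. NAE 18:2 seedlings replicates 1 and 3 were nearly alike, with a chi-square of 1.91 per degree of freedom over genes against 10.35 for the next closest pair of replicates.

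The genes lie in tandem copies on the minus strand (coordinates of TAIR10.1). UGT73C1 (AT2G36750), UGT73C2 (AT2G36760), UGT73C4 (AT2G36770), UGT73C3 (AT2G36780), UGT73C6 (AT2G36790) and UGT73C5 (AT2G36800) follow each other on chromosome 2 within 14754 bases. UGT73B3 (AT4G34131), UGT73B2 (AT4G34135) and UGT73B1 (AT4G34138) share 7147 bases of chromosome 4, and UGT73C7 (AT3G53160) lies alone on chromosome 3 at chr3:19702332-19703976. Apart from UGT73B1, with 2 exons, each member is annotated with 1 exon. The 250 bases before the annotated start of 3 members are shown because these members held the contrasting patterns below. UGT73C5 was near 0 in DMSO roots and high in NAE-treated roots, UGT73C1 stayed near 0 in all roots, and UGT73B3 was measured in every organ. Capitals mark TGACG, the core that TGA factors bind, on either strand.
UGT73C5 (chr2:15425130-15425379, minus strand): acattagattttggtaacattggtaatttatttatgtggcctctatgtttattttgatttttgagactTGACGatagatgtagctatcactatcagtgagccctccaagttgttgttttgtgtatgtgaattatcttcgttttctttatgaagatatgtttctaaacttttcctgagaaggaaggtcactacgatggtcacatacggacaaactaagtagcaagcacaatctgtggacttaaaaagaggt
UGT73C1 (chr2:15412065-15412314, minus strand): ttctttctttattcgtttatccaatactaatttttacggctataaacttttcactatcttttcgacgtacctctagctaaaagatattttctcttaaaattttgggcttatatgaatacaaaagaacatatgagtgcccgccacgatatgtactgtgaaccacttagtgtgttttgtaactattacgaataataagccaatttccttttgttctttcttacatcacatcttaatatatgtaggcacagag
UGT73B3 (chr4:16344819-16345068, minus strand): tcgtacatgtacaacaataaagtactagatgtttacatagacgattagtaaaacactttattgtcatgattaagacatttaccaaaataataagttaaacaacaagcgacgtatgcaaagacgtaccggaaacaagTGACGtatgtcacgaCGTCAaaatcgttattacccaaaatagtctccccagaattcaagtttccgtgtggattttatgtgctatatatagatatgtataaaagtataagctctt

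TGACG was found on either strand in 3 of the 10 members' windows, those of UGT73B1, UGT73B3 and UGT73C5, and in 18.6% of 27443 windows of all protein-coding genes. UGT73B3 held it at positions -114 to -110 on the gene's strand and at -99 to -95 on the other, counted back from -1, the base before the start. UGT73C5 held it once, at -182 to -178, and UGT73C1 did not hold it. UGT73B4, UGT73B5 and UGT73D1, the UGT73 genes outside the family, each held it too. TTGAC, the core of the W-box bound by WRKY factors, was in 6 of 10 windows and in 44.9% of all. In UGT73C5 and UGT73B3 it overlapped a TGACG, while the G-box CACGTG (6.49% of all windows) and the mitochondrial dysfunction motif (0.740%) were in no member's window. A match in so short a window is a description of its letters.

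Copies this close can share reads. The coding sequences of UGT73C5 and UGT73C6 were 91.4% identical, those of UGT73C3 and UGT73C4 91.3%, and those of UGT73B2 and UGT73B3 89.4%. Of all stretches of 75 bases, the read length, in the exons of UGT73C3, 7.01% occur elsewhere in the genome, with 8.08% for UGT73C4, 2.34% for UGT73C5, 2.74% for UGT73C6 and under 0.5% for UGT73B2 and UGT73B3. UGT73B1, UGT73C1, UGT73C2 and UGT73C7 had no such stretch. The split of reads between UGT73C3 and UGT73C4 is therefore the least certain among the members, although each was counted mostly over sequence of its own.

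UGT73C6 had 0 counts in all 27 libraries. All bases of its exon are covered by the exons of AT2G36792, a long non-coding RNA on the opposite strand (chr2:15420065-15422088), which itself had 80 counts in all and at most 10 in a library. The same holds across the table. Of 332 protein-coding genes wholly covered by exons on the opposite strand, 327 (98.5%) had a total of 0, against 5.11% of 6245 partly covered genes and 9.22% of 20867 genes with no cover. UGT73B1 is covered over 34.1% of its exon bases and UGT73B3 over 15%. Whether UGT73C6 was transcribed cannot be read from these counts, and it enters no comparison below.

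**Figure D1:**
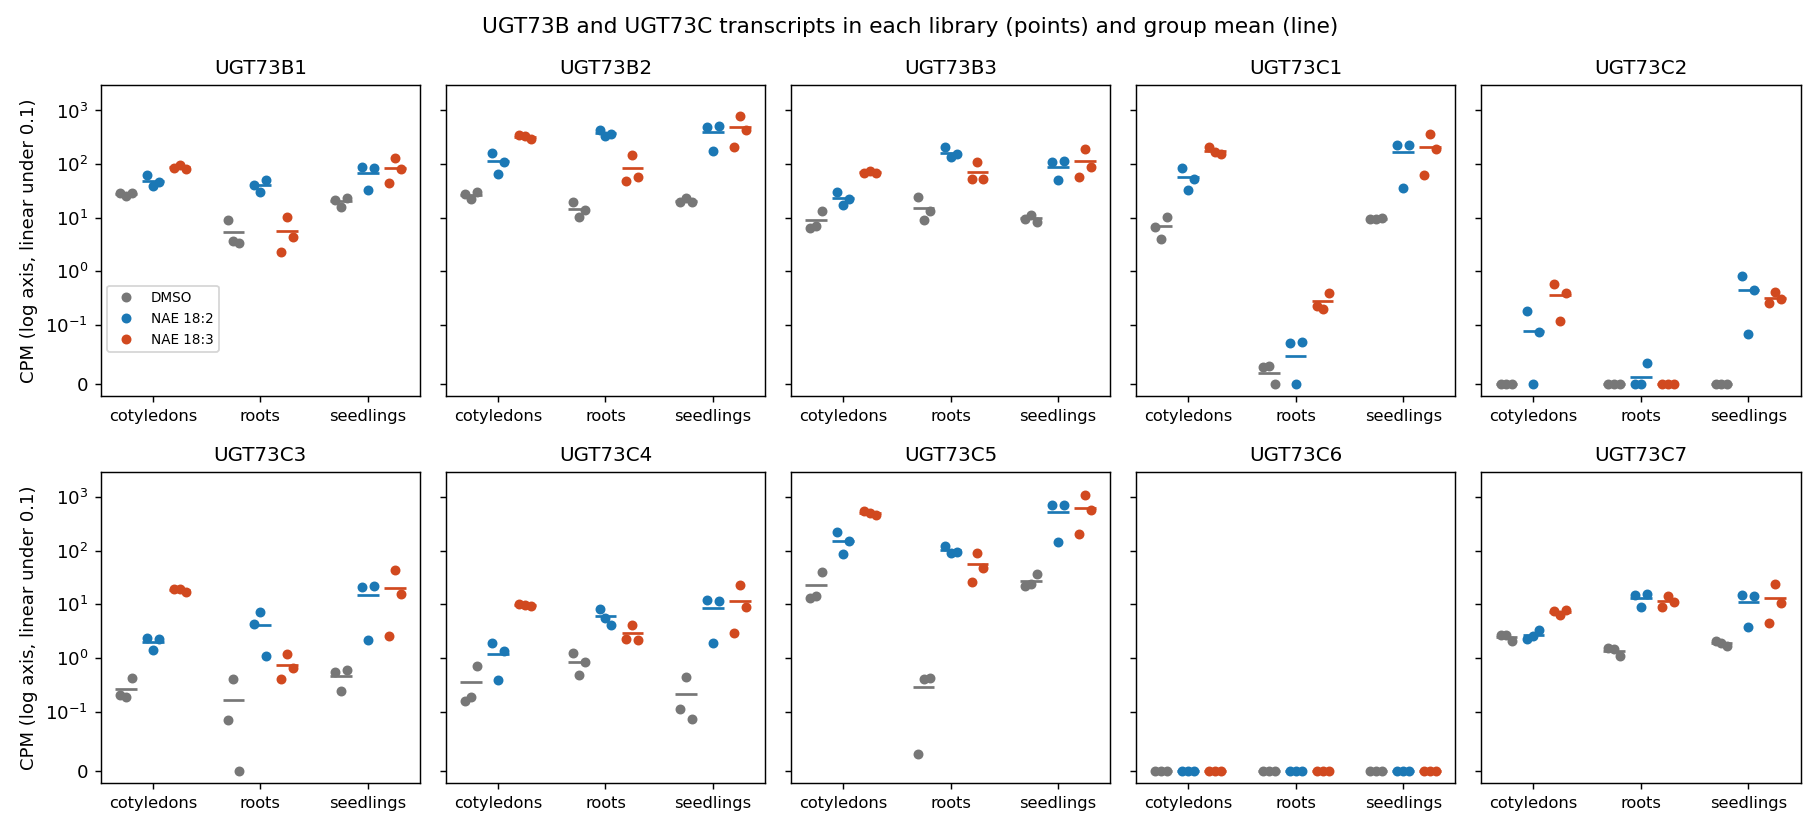
CPM of the 10 members (one panel each, log axis that is linear under 0.1) in every library, by organ and treatment, with points for libraries and lines for means of 3. UGT73C5 lies under 0.5 CPM in the 3 DMSO roots and at 26.7 CPM or more in the 6 NAE-treated roots, while UGT73C1 stays under 0.4 CPM in all 9 root libraries.

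Organ differences without an NAE were taken from the DMSO libraries, where 3 of 8 members were called lower in roots than in cotyledons and 0 were called higher. Over all genes, 22.4% were called lower and 20.0% higher, and nothing about the family as a whole is read from the count. These DMSO libraries also enter the NAE differences by which the family was chosen. The tests between the organs are therefore not independent of that choice. The members called lower were UGT73C5, UGT73C1 and UGT73B1. A call needed an adjusted p under 0.01 in edgeR's quasi-likelihood test over all 27 libraries and a fold change over 2. Bulk libraries cannot tell fewer cells of a type from less RNA per cell.

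UGT73C5 (AT2G36800) had 13.4, 14.7 and 40.2 CPM in the DMSO cotyledons and 0.0287, 0.397 and 0.421 CPM in the DMSO roots. Every root library lay far below every cotyledon library, with a log2 fold change of -6.37 (SE 0.87, adjusted p = 1.40e-06 in edgeR). UGT73C1 (AT2G36750) had 6.83, 4.01 and 10.2 CPM in DMSO cotyledons, and only 2 counts in all 3 DMSO roots together against 502 in the cotyledons. The ratio of cotyledons to roots was 333.9, with a 95% counting interval of 92.0 to 2765, and edgeR gave an adjusted p of 2.27e-06. Both genes lie in the chromosome 2 cluster and were close to absent from DMSO roots.

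UGT73B1 (AT4G34138) had 28.6, 25.3 and 28.2 CPM in DMSO cotyledons and 8.93, 3.63 and 3.40 CPM in DMSO roots. The groups did not overlap, and the log2 fold change was -2.35 (SE 0.48, adjusted p = 1.82e-04 in edgeR). Its neighbours on chromosome 4 were not called. UGT73B2 (AT4G34135) had 27.5, 22 and 29.5 CPM in cotyledons against 19.6, 10.4 and 14.1 CPM in roots, a log2 difference of -0.84 with a 95% interval of -1.81 to 0.12. UGT73B3 (AT4G34131) leaned the other way at 0.78 (-0.14 to 1.70), from 6.39, 7.0 and 13.5 CPM in cotyledons and 23.9, 8.91 and 13.5 CPM in roots. For both, the libraries of the 2 organs came close or overlapped.

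The remaining members were weakly measured in DMSO. UGT73C7 (AT3G53160) had 2.64, 2.71 and 2.08 CPM in cotyledons and 1.52, 1.46 and 1.07 CPM in roots, without overlap, at a log2 difference of -0.86 (-1.90 to 0.18). UGT73C3 stayed at 0.417 CPM or less in all 6 libraries and UGT73C4 at 1.23 CPM or less, with intervals of -3.64 to 2.32 and -0.58 to 3.11. Adjusted p-values of the 5 members not called ran from 0.112 to 0.694 in edgeR, and the intervals leave room for differences of over 2-fold in each. UGT73C2 had 0 counts in all 9 DMSO libraries. By contrast, the UGT73 genes outside the family, UGT73B4, UGT73B5 and UGT73D1, were all called higher in DMSO roots, by log2 differences of 2.67, 2.50 and 5.47.

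**Figure D2:**
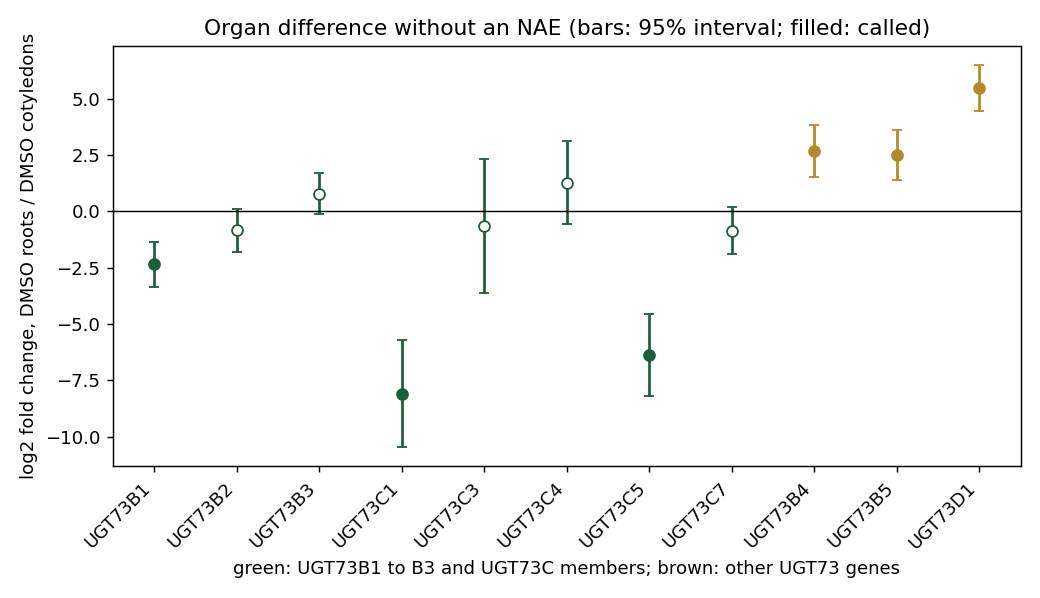
Log2 fold change of DMSO roots over DMSO cotyledons for the 8 members tested (green) and the 3 other UGT73 genes (brown), with 95% intervals from the fit and filled points for genes called. UGT73C1 and UGT73C5 lie lowest at -8.08 and -6.37, and the 3 other UGT73 genes lie above 2.

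NAE-treated libraries were compared with DMSO in each organ, the contrast the family was picked for. The values are given without p-values, nothing is read from the counts, and both NAEs are set against the same DMSO libraries. In cotyledons under NAE 18:2, 3 of 8 members passed the thresholds as higher, against 0.617% of genes, and under NAE 18:3 all 8 tested members did, against 6.33%. In roots 7 of 7 passed under NAE 18:2 and 4 of 7 under NAE 18:3, against 5.68% and 5.94% of genes. Root markers differed in the same roots, with 4 of 5 called lower than in DMSO under NAE 18:3 and 0 under NAE 18:2. CASP1, for one, had 96.9, 88.6 and 215 CPM in DMSO roots and 2.06, 4.16 and 1.63 CPM under NAE 18:3, and the part of this in the members' values was not tested. In seedlings 1 of 8 passed under NAE 18:2 and 2 of 8 under NAE 18:3, against 0.674% and 1.28%. No member passed as lower in any of the 6 comparisons, where the shares of genes under NAE 18:2 and under NAE 18:3 were 0.108% and 2.49% in cotyledons, 3.03% and 16.8% in roots, and 0.206% and 0.631% in seedlings.

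UGT73C5 was nearly absent from DMSO roots. There it went from under 0.5 CPM to 123, 91.8 and 93.1 CPM under NAE 18:2 and to 26.7, 92.3 and 48.8 CPM under NAE 18:3. These are fitted log2 differences of 8.51 (SE 0.69) and 7.51, the largest of any member in roots. In cotyledons it reached 220, 88.8 and 152 CPM under NAE 18:2 and 562, 505 and 467 CPM under NAE 18:3, log2 differences of 2.78 and 4.48. The treated libraries lay above all DMSO libraries in both organs, although DMSO cotyledons replicate 3 (40.2 CPM) was well above its replicates.

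UGT73C1 differed mainly in cotyledons. It had 85.3, 32.7 and 52.9 CPM in NAE 18:2 cotyledons and 211, 168 and 154 CPM in NAE 18:3 cotyledons, log2 differences from DMSO of 3.04 and 4.64. In roots its counts were 1, 1 and 0 in DMSO, 2, 0 and 2 under NAE 18:2 and 6, 6 and 8 under NAE 18:3. The NAE 18:3 root libraries lay above the others, and their 20 counts against 2 in DMSO were a ratio of 12.2 with a counting interval of 2.96 to 107.4. The highest level in roots, 0.395 CPM, was in NAE 18:3 roots replicate 3, the library with the cotyledon markers at 630 CPM. Replicates 1 and 2, at 0.224 and 0.200 CPM, had cotyledon markers of 45 and 17.5 CPM. The part of cotyledon RNA in these root counts was not tested. The 4 counts under NAE 18:2 gave a ratio of 2.25 (0.322 to 24.8), which this depth cannot tell from no change.

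UGT73B2 was measured well in both organs. It had 19.6, 10.4 and 14.1 CPM in DMSO roots, 433, 327 and 360 CPM under NAE 18:2 and 47.6, 147 and 56.2 CPM under NAE 18:3, log2 differences of 4.63 and 2.34. In cotyledons it went from 27.5, 22 and 29.5 CPM to 163, 66.3 and 111 CPM and to 345, 335 and 298 CPM, log2 differences of 2.13 and 3.62. The treated libraries stood apart from DMSO in both organs, and the order of the NAEs was opposite between the organs. UGT73B3 followed it in roots, with 207, 135 and 152 CPM under NAE 18:2 and 52.3, 111 and 52.3 CPM under NAE 18:3. In cotyledons UGT73B3 had 29.9, 16.9 and 22.6 CPM and then 67.4, 75.4 and 67.3 CPM, so its log2 differences were 3.37 and 2.05 in roots and 1.39 and 2.95 in cotyledons.

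UGT73B1 was the exception in NAE 18:3 roots. It had 2.32, 10.1 and 4.35 CPM there, which overlapped DMSO roots at 8.93, 3.63 and 3.40 CPM, and 41.4, 30.6 and 50.3 CPM in NAE 18:2 roots. The log2 differences from DMSO were -0.09 (SE 0.54) under NAE 18:3 and 2.89 under NAE 18:2. In cotyledons it was higher under both NAEs, with 63.4, 39 and 45.5 CPM and 86.3, 95.8 and 82.1 CPM, at log2 differences of 0.87 and 1.67.

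UGT73C3 and UGT73C4, the pair that shares most 75-base stretches, had the largest log2 differences in NAE 18:3 cotyledons. UGT73C3 went from 0.200, 0.187 and 0.417 CPM in DMSO cotyledons to 2.36, 1.42 and 2.22 CPM under NAE 18:2 and 19.3, 19.6 and 16.9 CPM under NAE 18:3, log2 differences of 2.88 and 6.07. UGT73C4 went from 0.160, 0.187 and 0.708 CPM to 1.89, 0.381 and 1.33 CPM and 10.2, 9.82 and 9.30 CPM, log2 differences of 1.76 and 4.76. Under NAE 18:2 the UGT73C4 libraries overlapped DMSO, and under NAE 18:3 neither gene did. In roots UGT73C3 had 4.33, 7.12 and 1.11 CPM under NAE 18:2 and 0.411, 1.20 and 0.642 CPM under NAE 18:3, against at most 0.397 CPM in DMSO, so one DMSO library nearly met the treated range. UGT73C4 had 8.25, 5.59 and 4.12 CPM and 2.28, 4.16 and 2.17 CPM in roots, against 1.23, 0.488 and 0.841 CPM in DMSO.

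UGT73C7, alone on chromosome 3, differed most from DMSO in roots, under both NAEs. In roots it went from 1.52, 1.46 and 1.07 CPM to 15.3, 8.81 and 15.6 CPM under NAE 18:2 and 8.90, 14.5 and 10.9 CPM under NAE 18:3, log2 differences of 3.23 and 2.90. In cotyledons NAE 18:2 left it at 2.25, 2.57 and 3.37 CPM, within reach of DMSO at a log2 difference of 0.15, and NAE 18:3 gave 7.46, 6.28 and 7.96 CPM at 1.53. UGT73C2, with 0 counts in DMSO, had 13, 3 and 9 counts in NAE 18:3 cotyledons. That was 8.31-fold above a floor of 3 counts over the DMSO group, with the treated counts taken as exact. UGT73C2 had a single count in the 6 NAE-treated root libraries.

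Set beside each other, the fitted NAE differences were of unlike size in the organs, in a way that changed with the NAE. This is a description without a test. Under NAE 18:2 all 7 members fitted in both organs had the larger log2 difference in roots. The margin was 1.0 (SE 0.77) for UGT73C4, 1.70 (SE 1.03) for UGT73C3, 3.08 (SE 0.35) for UGT73C7 and 5.73 (SE 0.83) for UGT73C5. Of all genes, NAE 18:2 had 5.68% called higher in roots and 0.617% in cotyledons. Under NAE 18:3, 5 of these 7 had the larger difference in cotyledons, by 0.90 (SE 0.51) for UGT73B3 up to 4.08 (SE 1.05) for UGT73C3. The share of all genes with the larger difference in each organ was not counted, so nothing about the family is read from these counts. UGT73C5 and UGT73C7 kept the larger difference in roots under NAE 18:3, by 3.03 and 1.36. The low DMSO level of UGT73C5 in roots enters both of its root differences.

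**Figure D3:**
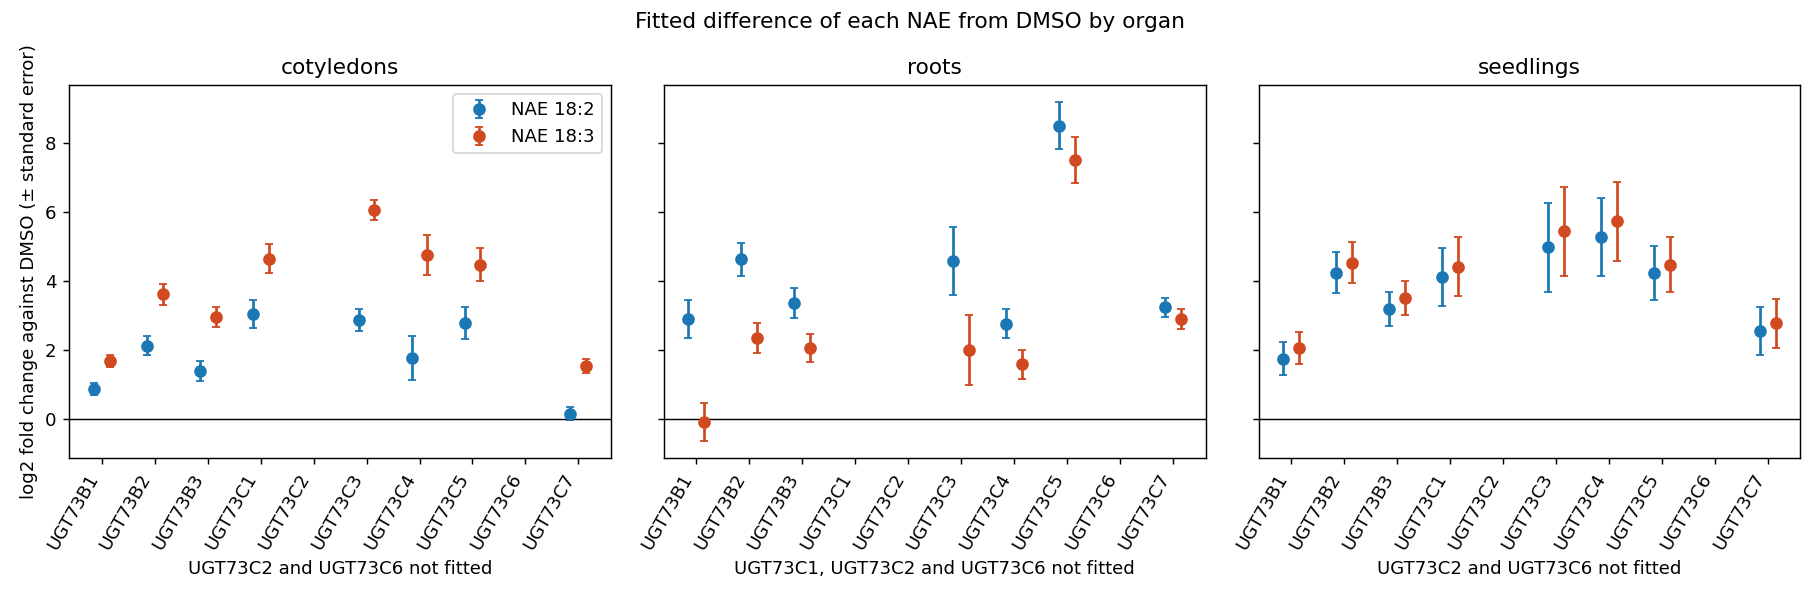
Fitted log2 fold change of NAE 18:2 (blue) and NAE 18:3 (red) against DMSO in each organ, with standard errors and no test. The blue points lie above the red ones for the 7 members fitted in roots, where UGT73C1 was not fitted, and below them for the 8 fitted in cotyledons and in seedlings.

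NAE-treated seedlings varied widely within groups. UGT73C5 had 22.3, 24.5 and 36.7 CPM in DMSO, 721, 144 and 721 CPM under NAE 18:2 and 202, 1102 and 581 CPM under NAE 18:3. UGT73B2 had 19.5, 23.1 and 19.2 CPM, then 499, 173 and 507 CPM, and 204, 804 and 439 CPM. UGT73C1 had 9.30, 9.24 and 9.96 CPM, then 229, 36.5 and 231 CPM, and 61.9, 367 and 188 CPM. All treated libraries lay above DMSO for these genes, and in each the low library was NAE 18:2 replicate 2 or NAE 18:3 replicate 1, the treated libraries whose root markers were at 84.4 and 58.7 CPM. UGT73C2 was detected here too, with 22, 3 and 10 counts and 8, 12 and 9 counts. Taken as exact, these were 10.4-fold and 8.02-fold above the floor.

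The log2 differences from DMSO in seedlings were 1.75 to 5.28 under NAE 18:2 and 2.06 to 5.73 under NAE 18:3, with UGT73B1 the lowest and UGT73C4 the highest under both. The members past the thresholds were UGT73B2 (4.24) under NAE 18:2 and UGT73B2 (4.53) and UGT73B3 (3.51) under NAE 18:3. With the near-identical NAE 18:2 replicates 1 and 3 summed, the NAE 18:2 call was lost, and with a replicate block 0 members passed under either NAE. Leaving out the 4 libraries low in root markers (an alternative added with the data in view) keeps a single library under each NAE, with the spread taken from the 3 DMSO libraries. The log2 differences were then smaller, at 3.08 and 3.31 for UGT73B2 and 2.37 and 2.86 for UGT73C5. The part of root content in the members' spread was not tested further.

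The direct contrast of NAE 18:3 with NAE 18:2 was tested in each organ, 1 pair of agents in 3 organs, since the choice of the family did not name it. The treated libraries are the same ones in which the family was picked, so these tests are not independent of that choice. The doses differed, at 70 and 40 µM, so agent and dose cannot be told apart. In cotyledons 5 of 8 members were called higher under NAE 18:3, against 3.91% of all genes, and 0 were called lower, against 0.417%. In all 8 members every NAE 18:3 cotyledon library lay above every NAE 18:2 one. The share of all genes with such an order was not counted, so nothing about the family is read from it.

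UGT73C3 showed the largest difference between the NAEs in cotyledons, at a log2 value of 3.19 (SE 0.22, adjusted p = 9.81e-05 in edgeR), followed by UGT73C4 at 3.00 (SE 0.49, adjusted p = 0.00342). UGT73B3, UGT73B2 and UGT73C7 were also called, at 1.57, 1.49 and 1.38 with adjusted p-values of 0.00484, 0.00592 and 0.00143 in edgeR. UGT73C1 and UGT73C5 were not called, UGT73C1 at 1.61 (95% interval 0.79 to 2.43, adjusted p = 0.0148 in edgeR) and UGT73C5 at a log2 value of 1.70 (0.73 to 2.68, adjusted p = 0.0232). UGT73B1 missed the fold threshold at 0.81 (0.44 to 1.17, adjusted p = 0.00875 in edgeR). With the replicate number as a block, which these cotyledon libraries shared, UGT73C1 was called as well (1.71, adjusted p = 0.0053 in edgeR). The count was 2 without NAE 18:2 replicate 3 or without any one NAE 18:3 replicate, when UGT73C3 and UGT73C7 kept their calls, and 7 without NAE 18:2 replicate 1.

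In roots the fitted differences ran the other way. Of 7 members tested, 2 were called lower under NAE 18:3 than under NAE 18:2, against 15.3% of all genes, and 0 were called higher, against 1.91%. How many of all genes lay lower under NAE 18:3 was not counted, so nothing about the family is read from this direction. UGT73B1 was at 2.32 to 10.1 CPM under NAE 18:3 and 30.6 to 50.3 CPM under NAE 18:2, a log2 difference of -2.98 (SE 0.55, adjusted p = 0.00251 in edgeR). UGT73B2 was at 47.6 to 147 CPM and 327 to 433 CPM, a log2 difference of -2.28 (SE 0.43, adjusted p = 0.00268). In both genes the groups did not overlap, and NAE 18:3 roots replicate 2 held the highest of the NAE 18:3 values. UGT73C1, too low to be tested, went against this order, with 6, 6 and 8 counts under NAE 18:3 and 2, 0 and 2 under NAE 18:2.

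The other root differences were not called. UGT73B3 was at -1.32 (95% interval -2.23 to -0.40), UGT73C3 at -2.60 (-4.50 to -0.69) and UGT73C4 at -1.18 (-2.06 to -0.30), with adjusted p-values of 0.0233, 0.0286 and 0.0307 in edgeR. UGT73C5 at -1.0 (-2.0 to 0.00) and UGT73C7 at -0.34 (-0.90 to 0.22) had intervals that reached 0. UGT73C7 was thus the member whose interval left the least room for a difference between the NAEs in roots. Without NAE 18:3 roots replicate 3, the library highest in cotyledon markers, both calls were lost at adjusted p-values of 0.0122 and 0.0116 in edgeR, with log2 differences of -2.82 and -2.05. Without replicate 2, 4 members were called lower.

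Root markers moved in the same comparison. In NAE 18:3 roots 4 of 5 were called lower than in NAE 18:2 roots, while PIN2 was at a log2 difference of -0.26. Their sum was 229 to 268 CPM under NAE 18:3, 406 to 445 CPM under NAE 18:2 and 310 to 505 CPM in DMSO. CASP1, of the endodermis, had a log2 difference of -5.36 and PRX44, of root hairs, of -3.68. Their part in the members' differences was not tested.

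In seedlings 0 of 8 members were called in either direction, and neither was any gene of the table (0% in both directions). The log2 differences were 0.23 to 0.47, each with an adjusted p of 0.999 in edgeR, and the 95% intervals ran from -0.74 to 1.36 for UGT73B1 and from -1.81 to 2.74 for UGT73C3. At an unadjusted p under 0.05 there were 0 members and 690 genes, and DESeq2 called 0 members. The upper ends lay below the cotyledon differences for UGT73C3 (2.74 against 3.19), UGT73C4 (2.38 against 3.00), UGT73B3 (1.35 against 1.57) and, barely, UGT73B2 (1.48 against 1.49), and above them for UGT73B1, UGT73C1, UGT73C5 and UGT73C7. The difference between the organs was not tested.

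**Figure D4:**
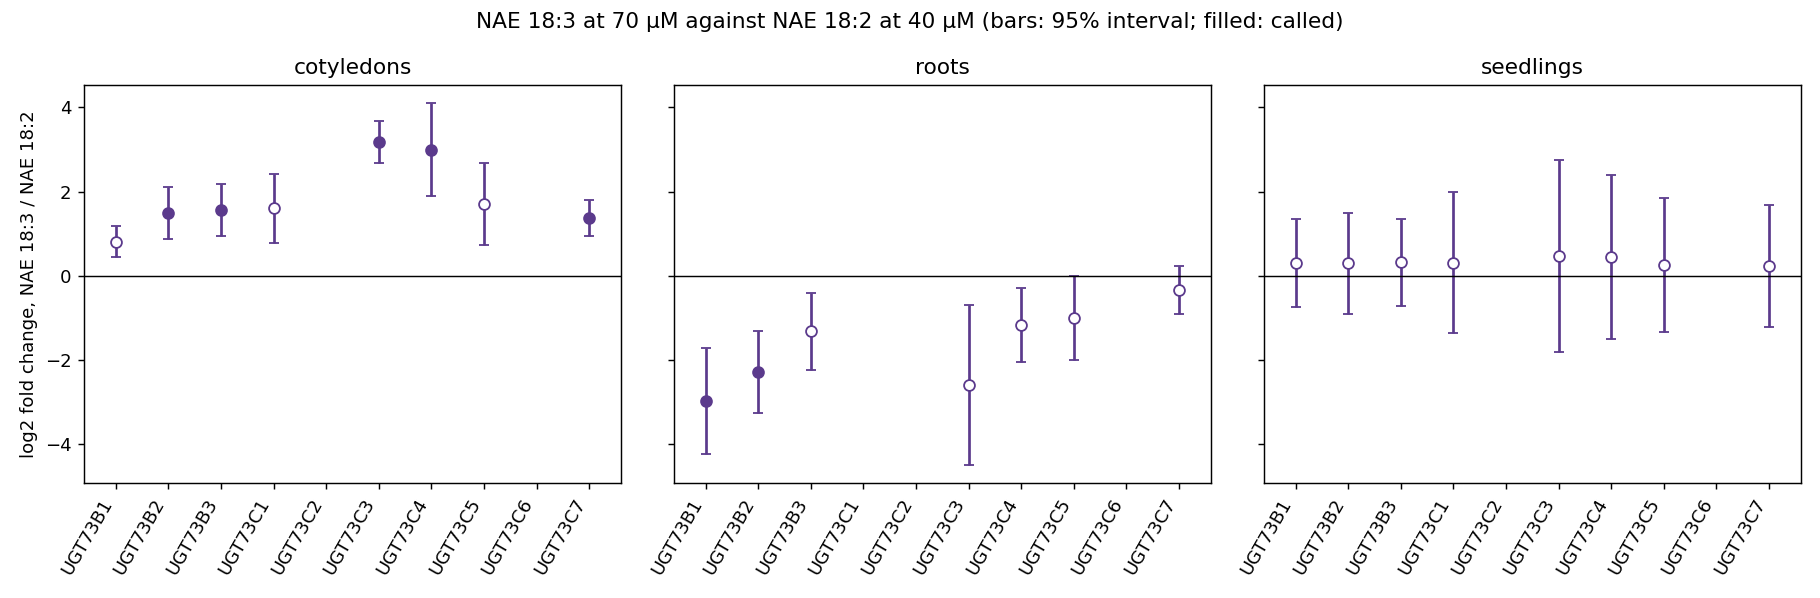
Log2 fold change of NAE 18:3 over NAE 18:2 in cotyledons, roots and seedlings, with 95% intervals and filled points for members called. Points lie above 0 for all 8 members in cotyledons and below 0 for all 7 in roots, and all intervals in seedlings include 0.

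To compare members with each other, CPM were divided by exon length, and the members' sum was taken for each library. The lengths include exon bases covered on the opposite strand, 34.1% for UGT73B1 and 15% for UGT73B3. If reads over those bases were not counted, levels per kb of these genes come out too low. Their ranks and all shares are uncertain to that extent. The sum was 42.1, 37.5 and 62.6 CPM per kb in DMSO cotyledons and 28.1, 13.0 and 16.8 CPM per kb in DMSO roots. Under NAE 18:2 it was 285, 125 and 197 CPM per kb in cotyledons and 405, 293 and 328 CPM per kb in roots, and under NAE 18:3 it was 663, 612 and 556 CPM per kb in cotyledons and 72.3, 191 and 89.7 CPM per kb in roots. The highest summed level in a dissected organ was thus in NAE 18:3 cotyledons, and 4 treated seedling libraries, at 708 to 1352 CPM per kb, exceeded it. These 4 were the libraries low in root markers.

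The make-up of that sum differed by organ. In DMSO cotyledons the order of levels was UGT73B1 at 13.2 ± 0.86 CPM per kb (SD, n = 3), UGT73C5 at 11.6 ± 7.72, UGT73B2 at 11.5 ± 1.70, UGT73B3 at 5.09 ± 2.24 and UGT73C1 at 4.15 ± 1.84. With no allowance for covered bases, the first 3 lay within their spread of each other, as did UGT73B3 and UGT73C1. In DMSO roots UGT73B3 stood first at 8.75 ± 4.35 CPM per kb and UGT73B2 second at 6.43 ± 2.01, again within their spread, before UGT73B1 at 2.56 ± 1.5 and UGT73C7 at 0.822 ± 0.149.

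By share, UGT73B1 to UGT73B3 held most of the sum in DMSO roots, with UGT73B3 at a mean of 44.3%, UGT73B2 at 34.2% and UGT73B1 at 12.8%, and UGT73C5 at 0.966%. Under NAE 18:2 roots came to 47.9% UGT73B2, 27.1% UGT73B3 and 15.3% UGT73C5, and under NAE 18:3 to 35.7% UGT73B3, 29.9% UGT73B2 and 23.8% UGT73C5. In NAE 18:3 cotyledons UGT73C5 led with 42.8%, ahead of UGT73B2 (23.4%) and UGT73C1 (17.2%), where DMSO cotyledons had 23.0%, 25.0% and 8.53%. The chromosome 2 cluster thus took a larger share in treated than in DMSO libraries of both organs, through UGT73C5 in roots and through UGT73C5 and UGT73C1 in cotyledons.

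**Figure D5:**
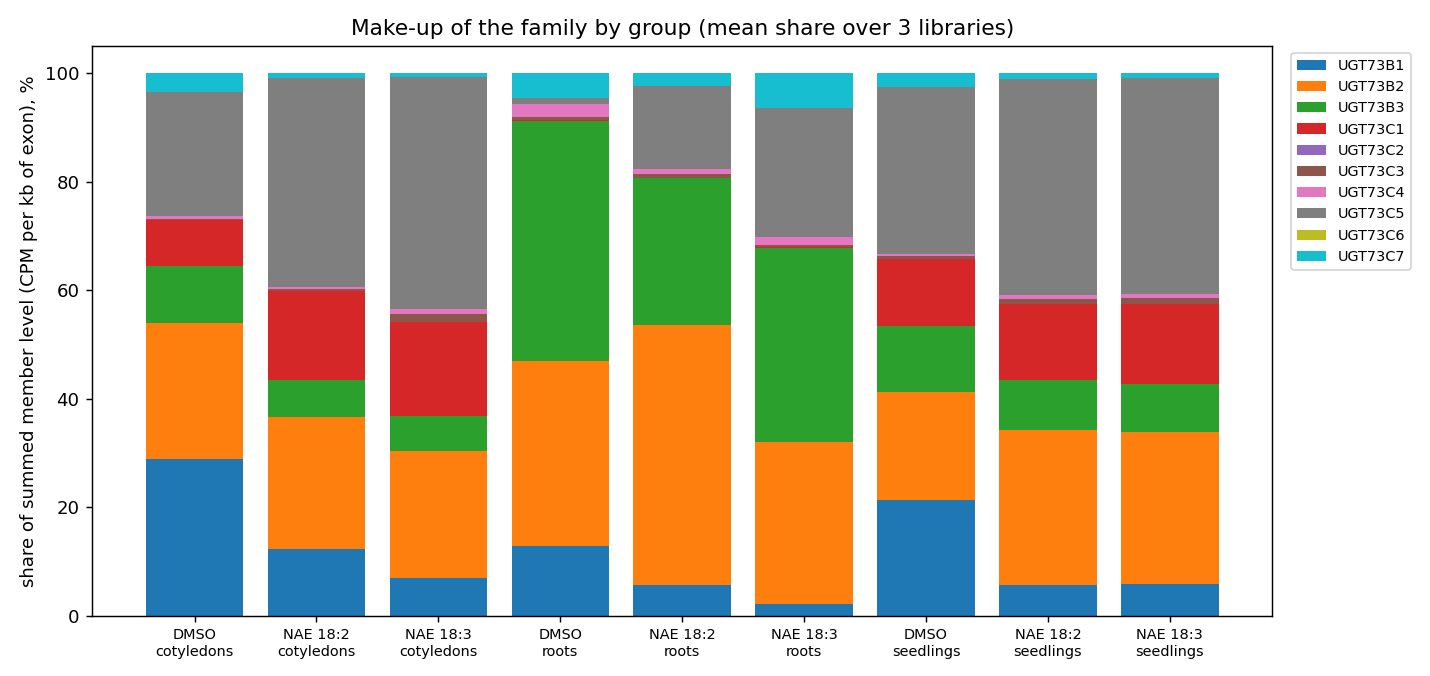
Mean share of each member in the members' summed CPM per kb of exon, in the 9 groups (3 libraries each, stacked to 100%). UGT73C5 takes 0.966% in DMSO roots, 15.3% under NAE 18:2 and 23.8% under NAE 18:3, and UGT73C1 is visible in cotyledons and seedlings but not in roots.

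Levels of members were correlated across libraries as a description. In roots UGT73C1, with at most 8 counts, had r from -0.34 to 0.50 with the others, and UGT73C2 had 1 count. These correlations of log2(CPM + 1) share the treatment steps and the libraries, and no p-value is given. UGT73B2 and UGT73B3 had r = 0.90 over the 27 libraries and r = 0.98 in the 9 root libraries, and UGT73B2 and UGT73C4, on different chromosomes, had 0.91 and 0.97. UGT73B1 varied by partner over the 27 libraries, with r = 0.44 to UGT73B3 in its own cluster and 0.41 to UGT73C7. Its r was 0.75 to UGT73B2, 0.81 to UGT73C1 and 0.83 to UGT73C5. Within organs UGT73B1 and UGT73B3 had 0.98 in cotyledons, 0.78 in roots and 0.95 in seedlings. UGT73C1 and UGT73B3 had r = 0.22 over 27 libraries but 0.97 within cotyledons and 0.98 within seedlings, where the root libraries, with almost no UGT73C1, were left out. UGT73C7 and UGT73C5 had 0.98 in roots and 0.76 in cotyledons.

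Among 15505 genes with a mean of at least 5 CPM outside the UGT73 group, those with the pattern most like UGT73B2 over the 27 libraries were CRF6, a cytokinin response factor, AT2G04050, ALAAT2, an alanine aminotransferase, AT2G38250 and AT5G43450, each with r = 0.98. For UGT73C5 they were DTX1, a detoxification efflux carrier (r = 0.97), AT5G43450 (0.96), CRF5 (0.95), FBA6, an aldolase (0.95), and CRK1, a protein kinase (0.95). AT5G43450 was on both lists.

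The UGT73 genes outside the family behaved partly like it. UGT73B4, which conjugates xenobiotics, had 42.8, 23.2 and 35.2 CPM in DMSO roots, 574, 411 and 596 CPM under NAE 18:2 and 223, 400 and 247 CPM under NAE 18:3. UGT73B5, whose annotated span contains UGT73B4, had log2 differences from DMSO of 3.52 and 2.48 in roots, so the split of reads between them is uncertain. UGT73D1, the neighbour of UGT73C7, had 13.1, 6.56 and 9.29 CPM in DMSO roots, 41.8, 32.6 and 34.9 CPM under NAE 18:2 and 1.94, 5.86 and 2.62 CPM under NAE 18:3. It was called lower under NAE 18:3 than under NAE 18:2 (log2 difference -3.50, adjusted p = 3.36e-04 in edgeR), and it was the only one of the 3 to fall below DMSO, at -1.62.

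Among the 56 further UGT genes of the annotation, which include these 3, the direction was mixed. In NAE 18:3 roots 6 of 40 tested were called higher than in DMSO and 18 lower, against 5.94% and 16.8% of all genes. Their median log2 difference was -0.85, against 0.00 over all genes. In NAE 18:2 roots 5 were called higher and 6 lower (5.68% and 3.03% of genes), in NAE 18:3 cotyledons 10 of 41 higher and 1 lower (6.33% and 2.49%), and in NAE 18:2 cotyledons 0 in either direction (0.617% and 0.108%). Between the NAEs, 4 of 41 were called higher under NAE 18:3 in cotyledons (3.91%) and 15 of 40 lower in roots (15.3%). The largest differences in NAE 18:3 roots were UGT72B3 at -8.34, UGT72E3 at -6.43, UGT74E2 at 5.99 and UGT84A1 at -4.99. UGT74E2 glucosylates the auxin indole-3-butyric acid, and UGT72E3 and UGT84A1 act on phenylpropanoids.

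Brassinosteroid genes were counted because UGT73C5 and UGT73C6 inactivate these hormones. The list held DET2, DWF1, DWF4, CPD, ROT3, CYP90D1, BR6OX1, BR6OX2, BAS1, CYP72C1 and BEN1. Of these 11, 2 were called higher and 2 lower in NAE 18:3 roots against DMSO, against 5.94% and 16.8% of all genes. They were the synthesis genes CPD (1.51), BR6OX2 (1.03), ROT3 (-1.85) and CYP90D1 (-3.63), all of the cytochrome P450 type. In NAE 18:2 roots 2 were called higher, BR6OX2 (1.06) and CYP72C1, against 5.68% of genes, and in NAE 18:3 cotyledons 1 was called lower, ROT3 at -1.07, against 2.49%. Of the listed genes that inactivate these hormones, CYP72C1 had 9.85, 5.95 and 7.76 CPM in DMSO roots, 32.3, 28.5 and 37.3 CPM under NAE 18:2 and 8.71, 29.2 and 17 CPM under NAE 18:3. It was called higher under NAE 18:2 (2.02) and not called under NAE 18:3 (1.06), where its libraries overlapped DMSO. BAS1 was not called in roots, at -0.17 under NAE 18:2 and -0.89 under NAE 18:3, and neither was BEN1, at 0.07 and -0.19.

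The listed regulators of detoxification genes were TGA2, TGA5, TGA6, SCL14, ANAC013, ANAC017, ANAC053, ANAC078, ANAC102 and WRKY30. Of these 10, 5 were called higher in NAE 18:2 roots (5.68% of all genes), 6 in NAE 18:3 roots (5.94%), 1 in NAE 18:2 cotyledons (0.617%) and 4 in NAE 18:3 cotyledons (6.33%), and 0 were called lower. The largest differences in NAE 18:3 roots were WRKY30 at 4.08, ANAC013, a mitochondrial stress factor, at 3.65, ANAC102 at 2.11 and SCL14, which acts with TGA factors, at 1.64. TGA2, TGA5 and TGA6 were called in none of these 4 comparisons, with differences of 0.00, 0.13 and 0.39 in NAE 18:3 roots, -0.31, -0.23 and 0.09 in NAE 18:2 roots, -0.44, -0.32 and 0.13 in NAE 18:3 cotyledons, and -0.18, -0.23 and 0.19 in NAE 18:2 cotyledons. In NAE 18:3 against NAE 18:2 cotyledons, 3 of the 10 were called higher (3.91% of all genes), among them WRKY30 (2.25, adjusted p = 5.88e-04 in edgeR), and in roots 1 was called lower (15.3%).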

How the data were processed

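The authors made stranded poly(A) libraries, trimmed reads with Trimmomatic, aligned them to TAIR10 with STAR and deposited whole-number counts per gene without normalization. The counting program, its annotation and its strand setting are not given in the sources used here. A deposited table of the same values divided by size factors was not used. All members and lists were chosen with earlier results of these data known.

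Counts were fitted with edgeR 4.0.16 in R 4.3.3 (TMM, filterByExpr, robust quasi-likelihood, two-sided tests). Each organ had a fit of its own 9 libraries with treatment as the term, and DMSO roots were compared with DMSO cotyledons in a fit of all 27 libraries. The main fits had no replicate block. Same-numbered libraries were taken as paired where all 3 correlations of their deviations from group means were over 0.1, which held for the NAEs in cotyledons (0.152 to 0.195) and for NAE 18:2 and DMSO in cotyledons (0.151 to 0.442). No label states a culture or day behind these numbers. Adjusted p-values are Benjamini-Hochberg values over all genes tested, and a gene was called at an adjusted p under 0.01 and a fold change over 2, the thresholds of the study. A group without counts was set to a floor of 3 counts over its libraries. Counting intervals are exact conditional binomial intervals at 95% and, like the floor, cover counting error only. Alternatives were DESeq2 1.42.0, other normalizations and filters, a replicate block and left-out libraries. The fits were tested on simulated counts.

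Total counts ran from 17781269 to 38635934. Loci, gene names and windows of 250 bases before the start came from RefSeq on TAIR10.1, where all 10 members matched, and motifs were searched on both strands. Named were all members, the 3 other UGT73 genes, at most 4 called genes of a list with the largest difference in NAE 18:3 roots, and the 5 genes most like UGT73B2 and UGT73C5, the members of each group with the highest mean CPM. CYP72C1, BAS1, BEN1, TGA2, TGA5, TGA6, CASP1, PRX44, PIN2 and FAMA were named after their values were seen.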

Additional observations from a re-analysis of the deposited data

Results flagged for a closer look

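In UGT73B1, UGT73B2 and UGT73B3, the chromosome 4 cluster, the libraries of the NAEs stood in opposite order in the dissected organs. UGT73B2 was called in both organs, UGT73B1 in roots alone and UGT73B3 in cotyledons alone. Every NAE 18:3 cotyledon library lay above every NAE 18:2 cotyledon library, and every NAE 18:3 root library lay below every NAE 18:2 root library. The log2 difference of NAE 18:3 from NAE 18:2 was lower in roots than in cotyledons by 3.78 for UGT73B1 (-3.78, roots minus cotyledons), by 3.77 for UGT73B2 (-3.77) and by 2.88 for UGT73B3 (-2.88). This difference between organs was not tested. The fitted reversal was not particular to this cluster. UGT73C3, UGT73C4, UGT73C5 and UGT73C7 were also higher under NAE 18:3 in cotyledons, at 3.19, 3.00, 1.70 and 1.38. In roots they were lower, at -2.60, -1.18, -1.0 and -0.34, none called and with overlapping libraries. For UGT73C3 and UGT73C4 the fitted values of the organs lay further apart than for any gene of the cluster. For NAE 18:3 against NAE 18:2, the 3 other UGT73 genes were also higher in cotyledons (log2 differences of 1.92 to 2.21) and lower in roots (-3.50 to -0.99). How many of all genes stood in such an opposite order was not counted.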

How the results depend on the processing

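The 3 members called lower in DMSO roots remained 3 under every alternative run. The count for NAE 18:3 against NAE 18:2 in cotyledons ran from 2 to 7 when 1 library was left out, and in roots the 2 called lower became 4 with DESeq2 and 0 to 4 when 1 library was left out. Against DMSO, left-out libraries gave 0 to 5 members in NAE 18:2 cotyledons, 4 to 6 in NAE 18:2 roots, 0 to 6 in NAE 18:2 seedlings and 0 to 8 in NAE 18:3 seedlings. DESeq2 gave 5 in NAE 18:2 cotyledons and 9 in seedlings under each NAE, with UGT73C2 among the genes it tested. Fitting only the 6 libraries compared gave 0 in NAE 18:2 cotyledons, 2 in NAE 18:2 seedlings and 1 in NAE 18:3 seedlings, and upper quartile normalization gave 2 in NAE 18:2 seedlings. Without the 4 seedling libraries low in root markers, 4 and 6 were called, but this leaves 1 library under each NAE, assumed to vary like the 3 DMSO libraries. With the near-identical NAE 18:2 seedlings replicates 1 and 3 summed, 0 were called under NAE 18:2. The cause of these shifts was not tested.

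Replicate numbers were taken as paired in 2 cotyledon comparisons, and in no other comparison was every correlation over 0.1. The replicate block gave 6 members in place of 5 for the NAEs in cotyledons, 6 in place of 7 in NAE 18:2 roots and 0 in seedlings under each NAE against DMSO.

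NAE 18:3 against NAE 18:2 in seedlings changed sign, never past the threshold, without NAE 18:3 replicate 2 for all 8 members and without NAE 18:2 replicate 2 for 7 of them, UGT73B3 being the exception. With 1 library left out, the log2 differences ran from -0.15 to 0.60 for UGT73B1, -0.30 to 0.63 for UGT73B2, -0.30 to 0.61 for UGT73B3, -0.42 to 0.72 for UGT73C1, -0.71 to 0.97 for UGT73C3, -0.54 to 0.88 for UGT73C4, -0.44 to 0.64 for UGT73C5 and -0.58 to 0.62 for UGT73C7. With the replicate block UGT73C4 was at -0.036. Depth limits UGT73C1 in roots and UGT73C2 everywhere.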
